A study of Danio rerio with 20 samples.

Results

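The myelin structural genes are the genes whose products build the membrane wraps around axons. A set of 10 zebrafish genes was named by symbol and looked up in the deposited count table of 32105 Ensembl gene identifiers, where 9 matched an identifier. The 6 genes described here are mbpa, mbpb, mag, cldnk, cldn19 and cnp, and all 6 passed the filter on low counts. The symbol cd59 matched no identifier and is not analysed here. A gene listed as cd59a was not matched by the rule and is described after the genes most like the set.

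Myelin is a stack of glial membrane wrapped round an axon, and it speeds conduction along it. In the brain it is made by oligodendrocytes and in peripheral nerves by Schwann cells. Myelin basic protein holds the cytoplasmic faces of the wraps together, adhesion proteins attach the inner wrap to the axon, and claudins seal the margins of the wraps with tight junctions. Several of these genes exist in fish as pairs of copies, marked a and b.

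RNA was measured in brains of male zebrafish (Danio rerio) labelled AB JxTu, in 20 libraries. There were 4 groups of 5: 3-year fish swum in a swim tunnel, where a fish swims against a current (exercised 3-year), 3-year fish with no such exercise (unexercised 3-year), 1-year fish swum in the tunnel (exercised 1-year) and 1-year fish without it (unexercised 1-year). The layout asks how brain expression differs with exercise and with age, and if exercise acts alike in young and old fish. The sources used here do not give how long the fish swam, when they were sampled or whether each library is its own animal. The p-values therefore reflect spread between libraries, which may be technical. Young and old fish were different animals, and age cannot be told apart from rearing or other traits they differ in.

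Libraries held 23.4 to 34.6 M counts. The labelled tissue was checked for neural RNA only, with 25 identifiers of neuron and axon markers. Of these 0 were at 0 in every library, and their summed level was between 9029 and 13621 CPM. Such markers cannot show which brain regions were taken. CPM are counts per 1 M on library sizes scaled by TMM, the trimmed mean of M-values. In 7 libraries the summed level of muscle, epidermis or retina markers was over 3 times its median over all libraries. These were exercised 3-year libraries 1, 2 and 4, unexercised 3-year libraries 3 and 4, exercised 1-year library 3 and unexercised 1-year library 1. The highest sums were 7450 CPM of muscle markers and 3960 CPM of epidermis markers, both in unexercised 1-year library 1, and 396 CPM of retina and pineal markers in exercised 1-year library 3. Fits over the other 13 libraries, a choice made after seeing the data, keep 2 exercised 3-year, 3 unexercised 3-year, 4 exercised 1-year and 4 unexercised 1-year libraries.

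The 6 genes described spanned a wide range of levels, with mbpa far above the rest of them. Levels of different genes were compared as RPKM (reads per kilobase of gene length and per 1 M counts), recomputed from the counts. Averaged over 20 libraries, mbpa (ENSDARG00000036186), the main myelin basic protein gene of the set, had 3727 ± 954 RPKM (SD, n = 20), the 13th highest of 27790 identifiers. It took 0.998% of all counts on average, between 0.714% and 1.55% by library, and 92.3% of the summed RPKM of the 6 genes. It was 26.6 to 68.5 times the next of the 6 genes, mag, in each of the 20 libraries.

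Of the 6 genes, the others were an order of magnitude or more below mbpa. The gene mag (ENSDARG00000104023), for the myelin-associated glycoprotein that faces the axon, averaged 100 ± 18.5 RPKM. The claudin gene cldnk (ENSDARG00000042357), a tight junction gene of zebrafish myelinating glia, averaged 91 ± 18.9 RPKM. The second myelin basic protein gene, mbpb (ENSDARG00000089413), averaged 67.2 ± 21.2 RPKM (each SD, n = 20). Neighbours in this stretch were not cleanly ordered, because mag was above cldnk in 13 of 20 libraries and cldnk above mbpb in 16 of 20. Further down, the claudin gene cldn19 (listed as CLDN19, ENSDARG00000044569), known from Schwann cells in mice, averaged 27.3 ± 4.38 RPKM. The gene cnp (ENSDARG00000070822) averaged 15.6 ± 1.85 RPKM. It codes for a phosphodiesterase found in uncompacted myelin of mammals, and its fish protein is also known from neurons that regrow axons. With this level cnp was the lowest of the 6 and stood in 4712th place. From mbpb downward the order held in each of the 20 libraries.

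**Figure D1:**
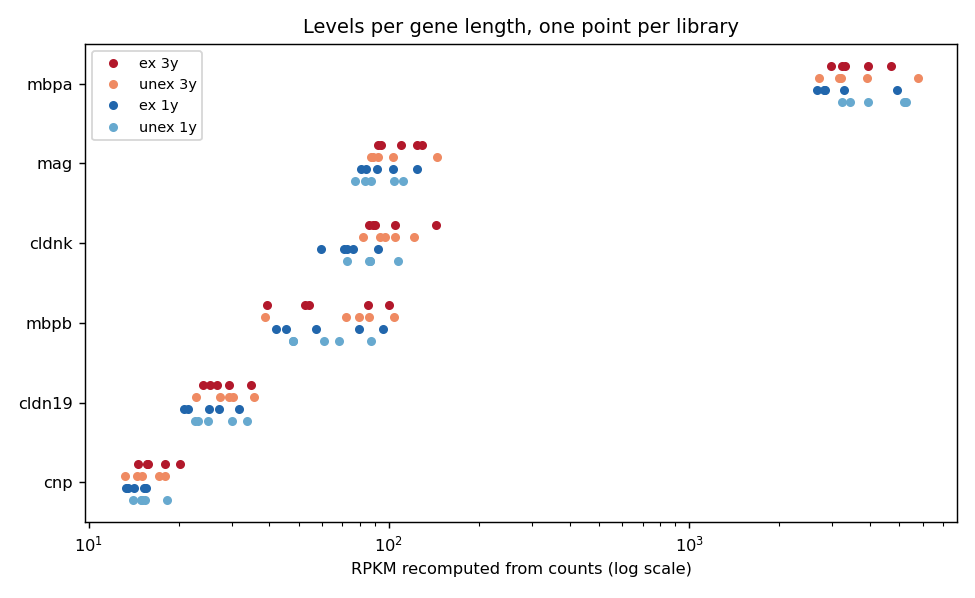
Level per gene length of the 6 myelin genes on a log axis of RPKM recomputed from the counts, with 1 point for each of 20 libraries, coloured by group (ex, swum in the tunnel; unex, not; 3y and 1y, age). mbpa sits between 2665 and 5780 RPKM and cnp between 13.2 and 20.2 RPKM, and the points of the 4 groups overlap within each gene.

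Together the 6 genes took 1.06 ± 0.202% of the counts in exercised 3-year libraries and 1.09 ± 0.333% in unexercised 3-year libraries. They took 0.958 ± 0.261% in exercised 1-year libraries and 1.21 ± 0.269% in unexercised 1-year libraries (SD, n = 5 each). By library the share ran from 0.872% to 1.37% in exercised 3-year and from 0.815% to 1.65% in unexercised 3-year libraries, and from 0.777% to 1.41% in exercised 1-year and from 0.932% to 1.5% in unexercised 1-year libraries. The ranges of the groups overlapped. The largest difference between group means, that of the 1-year groups, was close to the SD within those groups. Most of this share was mbpa, at 0.998% of all counts on average over 20 libraries.

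Swimming exercise was followed by no called change in any of the 6 genes, at either age. Calls are genes whose p in edgeR's quasi-likelihood test, adjusted by Benjamini-Hochberg over 21148 genes, fell below 0.05. At 3 years, 0 of 6 genes were called in exercised against unexercised fish, where 0.0284% of all genes were. At 1 year it was also 0 of 6, where 0.0189% of all genes were called. Averaged over both ages, 0 of 6 genes passed, against 0.908% of all genes. The count at an unadjusted p below 0.05 was 0 of 6 in each of these comparisons, where 8.07% of all genes had one at 3 years, 11.5% at 1 year and 13.8% over both ages. DESeq2 and limma called 0 of 6 as well. Of all 21148 genes, DESeq2 called 118 at 3 years, 268 at 1 year and 660 over both ages. Limma called 3, 17 and 201 of them.

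The 95% intervals below come from all 20 libraries and do not cover the choice of libraries. At 3 years the log2 fold changes ran from -0.19 for mbpb to 0.11 for cnp, with a median of -0.01 and adjusted p from 0.899 to 0.98 in edgeR. At 1 year they ran from -0.34 for mbpa to 0.08 for mag, with a median of -0.09 and adjusted p from 0.59 to 0.966 in edgeR. The steadiest gene, cnp, had a 95% interval of 0.930 to 1.25 times the unexercised level at 3 years and of 0.808 to 1.08 times at 1 year. The widest interval belonged to mbpb, at 0.572 to 1.34 times the unexercised level at 3 years and 0.676 to 1.58 times at 1 year. For mbpa the 95% interval was 0.690 to 1.34 times at 3 years and 0.567 to 1.1 times at 1 year. Over the 13 libraries without high marker sums, the log2 fold changes of the 5 genes other than mbpb ran from -0.32 for mbpa to 0.18 for cnp at 3 years, and those of all 6 from -0.21 for mbpa to 0.26 for mbpb at 1 year. A gene that misses the threshold is not shown to be the same in both groups.

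The dominant gene shows how wide the groups were. In exercised 3-year libraries 1 to 5, mbpa had 12435, 8420, 8607, 10453 and 7775 CPM, against 15581, 6915, 10631, 8348 and 8111 CPM in unexercised 3-year libraries 1 to 5. In exercised 1-year libraries 1 to 5 it had 7547, 13742, 9004, 7475 and 7761 CPM, against 14750, 8260, 14225, 9332 and 11011 CPM in unexercised 1-year libraries 1 to 5. The groups overlapped at both ages. At 1 year, 3 of 5 exercised libraries lay below each of the unexercised ones. Exercised library 3 lay above unexercised library 2, and exercised library 2 lay among the high unexercised ones. The log2 fold change at 1 year was -0.34 ± 0.23 (SE), with an adjusted p of 0.59 in edgeR. Its size depended on single libraries: it was -0.53 without exercised 1-year library 2 (unadjusted p = 0.0263 and adjusted p = 0.415 in edgeR) and -0.22 without unexercised 1-year library 1. Without the 3 libraries highest in muscle, epidermis, retina and blood markers, all of them 1-year libraries, it was -0.05.

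The second copy, mbpb, varied most from library to library. It averaged 182 ± 70.2 CPM in exercised 3-year libraries and 207 ± 62.6 CPM in unexercised 3-year libraries. At 1 year it averaged 184 ± 66.4 CPM in exercised libraries and 178 ± 50.3 CPM in unexercised libraries (SD, n = 5 each). Its values ran from 107 to 279 CPM over the 20 libraries, a CV of 31.4%, and each group held both low and high ones. The 2 myelin basic protein genes did not keep a fixed proportion: mbpa stood between 26.1 and 101 times mbpb per length. That lowest and that highest ratio both came from the unexercised 3-year group. The ratio ran from 46.4 to 83.9 in exercised 3-year, from 35.4 to 67.6 in exercised 1-year and from 60.8 to 76.4 in unexercised 1-year libraries. At 3 years the value of mbpb depended on which libraries were kept. Over the 13 libraries without high marker sums its log2 fold change with exercise at 3 years was -0.92 ± 0.35 (SE), against -0.19 ± 0.29 over all 20, with an unadjusted p of 0.0218 and an adjusted p of 0.849 in edgeR. The exercised 3-year libraries then left, 3 and 5, had 107 and 144 CPM, against 242, 276 and 193 CPM in unexercised 3-year libraries 1, 2 and 5. Its 95% interval over these libraries was 0.312 to 0.894 times the unexercised level. It was 1 of 6 genes with an unadjusted p below 0.05 in this fit, where 5.81% of all genes had one. The sources used here do not state how reads shared by similar copies were counted, so the split between copies is uncertain.

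**Figure D2:**
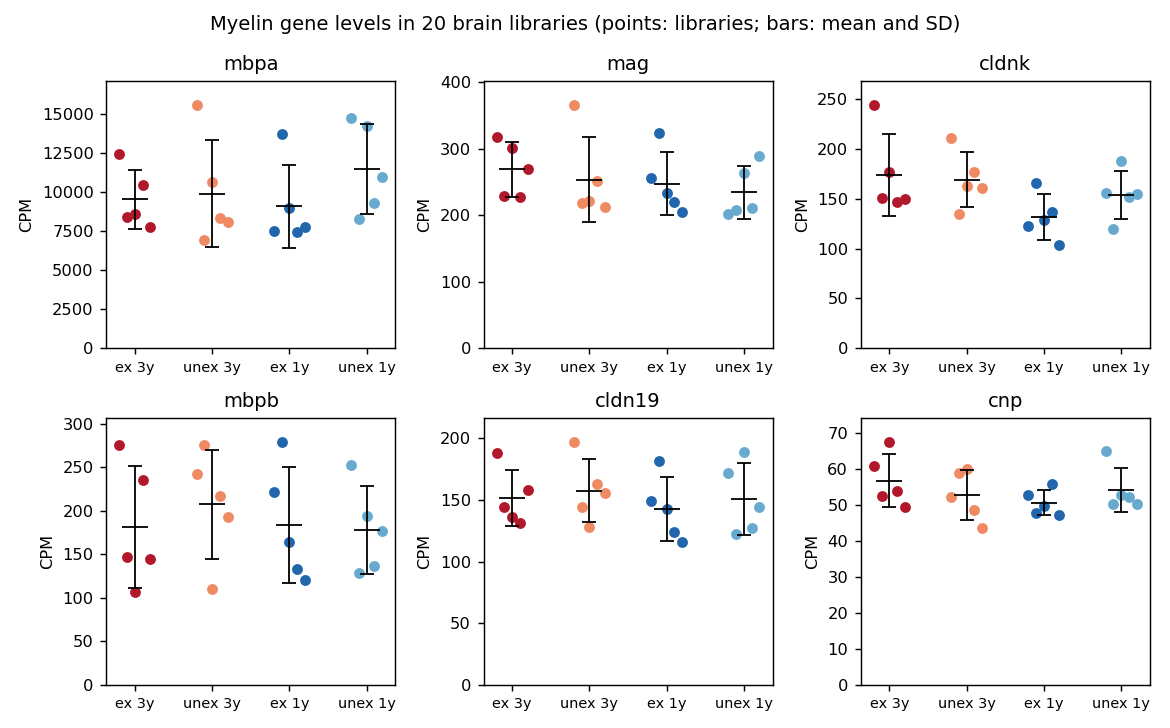
CPM of each of the 6 myelin genes by group (ex, swum in the tunnel; unex, not; 3y and 1y, age), with 1 point per library and bars for the mean and SD of 5 libraries. The ranges of the groups overlap in each panel; for cldnk the means are 174 and 169 CPM in the 3-year groups, against 132 and 154 CPM in the 1-year groups.

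Between the exercise effects of the 2 ages, 0 of 6 genes differed by edgeR's test of the interaction, where 0.00473% of all genes were called. An unadjusted p below 0.05 was found in 0 of 6 genes and in 4.75% of all genes. DESeq2 and limma called 0 of 6, and 12 and 1 of all 21148 genes. The difference, 3 years minus 1 year, ran from -0.24 for mbpb to 0.28 for mbpa on the log2 scale. Its 95% intervals reached from -1.11 to 0.96, so this comparison is the least precise of the set. Over the 13 libraries the difference for mbpb was -1.18 ± 0.43 (SE; unadjusted p = 0.0188 and adjusted p = 1 in edgeR). It was 1 of 6 genes with an unadjusted p below 0.05, where 3.45% of all genes had one.

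Age was followed by no called change in the 6 genes either. Averaged over both exercise states, 0 of 6 genes were called at 3 years against 1 year by edgeR, where 16.9% of all genes were, 9.65% higher and 7.3% lower. An unadjusted p below 0.05 was found in 1 of 6 genes, cldnk, where 31.1% of all genes had one. DESeq2 and limma called 0 of 6, and 4682 and 3260 of all 21148 genes. The median log2 fold change of the 6 genes was 0.09, against 0.003 over all genes. Above 0 were 5 of 6 genes and 50.5% of all genes. Some of the 6 vary together between libraries, so their signs are not independent. Within exercised fish, 0 of 6 genes were called by age, where 10.6% of all genes were. An unadjusted p below 0.05 was found in 1 of 6, again cldnk, where 26.4% of all genes had one. Within unexercised fish, 0 of 6 genes were called, where 0.586% of all genes were, and 0 of 6 had an unadjusted p below 0.05, where 14.1% of all genes had one. DESeq2 and limma called 0 of 6 in both states. Of all 21148 genes they called 3403 and 1881 within exercised fish, and 533 and 122 within unexercised fish. The age comparisons share no libraries between exercise states, and the exercise comparisons share none between ages.

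The claudin gene cldnk had the smallest p with age. It had 244, 151, 177, 147 and 150 CPM in exercised 3-year libraries 1 to 5, against 123, 166, 129, 137 and 104 CPM in exercised 1-year libraries 1 to 5. In these groups, 4 of 5 of the younger libraries lay below each of the older ones, and exercised 1-year library 2 did not. Without exercise it had 211, 135, 163, 177 and 161 CPM in 3-year libraries 1 to 5, against 156, 120, 188, 152 and 155 CPM in 1-year libraries 1 to 5. Here the ages overlapped widely, with unexercised 1-year library 3 above 4 of 5 of the older libraries. The log2 fold change was 0.40 ± 0.16 with exercise (adjusted p = 0.108 in edgeR) and 0.14 ± 0.16 without exercise (SE; adjusted p = 0.742 in edgeR). Averaged over both exercise states it was 0.27 ± 0.11 (SE; adjusted p = 0.104 in edgeR), with a 95% interval of 1.03 to 1.41 times the 1-year level. The difference between the age effects of the exercise states was 0.26 ± 0.22 (SE; adjusted p = 0.982 in edgeR).

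The value of cldnk was somewhat smaller without the 7 libraries with high muscle, epidermis or retina markers, a choice made after seeing the data. Its log2 fold change with age, averaged over both exercise states, was then 0.23, with an adjusted p of 0.4 in edgeR. In that fit 933 of 21531 genes, or 4.33%, were called. Without only the libraries highest in muscle, epidermis, retina and blood markers, cldnk was at 0.33 (adjusted p = 0.0908 in edgeR). This was larger than the 0.27 over all 20 libraries. Over all 20 libraries the same age comparison called 16.9% of all genes, 9.65% higher and 7.3% lower. Microglia and macrophage markers were higher at 3 years in 14 of 18 genes. Their summed level was 2096 to 4515 CPM in exercised 3-year and 1642 to 3807 CPM in unexercised 3-year libraries, against 1238 to 1497 CPM in exercised 1-year and 1070 to 2505 CPM in unexercised 1-year libraries. None of these markers was at 0 in every library. Exercised 3-year library 1 was highest in both cldnk and this sum, and the part of these cells in the result was not tested. In bulk brain RNA, fewer or more cells of a type and less or more RNA per cell cannot be told apart.

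The second claudin gene, cldn19, averaged 151 ± 22.7 CPM in exercised 3-year and 157 ± 25.9 CPM in unexercised 3-year libraries, against 143 ± 25.7 CPM in exercised 1-year and 151 ± 29 CPM in unexercised 1-year libraries (SD, n = 5 each). Its log2 fold change with age was 0.07 ± 0.10 (SE; adjusted p = 0.679 in edgeR). Per length, cldnk stood at 2.62 to 4.16 times cldn19 over the 20 libraries. The median ratio was 3.57 in exercised 3-year and 3.42 in unexercised 3-year libraries, against 2.88 in exercised 1-year and 3.16 in unexercised 1-year libraries. The 4 ranges of this ratio overlapped. The ranges of all 15 ratios between the 6 genes overlapped between the ages, both with exercise and without it. They also overlapped between exercised and unexercised fish at each age.

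The adhesion gene mag also missed the threshold. It had 318, 229, 301, 227 and 270 CPM in exercised 3-year libraries 1 to 5 and 365, 218, 221, 251 and 212 CPM in unexercised 3-year libraries 1 to 5. The 1-year values were 256, 324, 233, 219 and 205 CPM in exercised libraries 1 to 5 and 201, 208, 263, 210 and 289 CPM in unexercised libraries 1 to 5. The lowest value of each group lay between 201 and 227 CPM and the highest between 289 and 365 CPM, so the groups overlapped. The age log2 fold change averaged over both exercise states was 0.12 ± 0.11 (SE; adjusted p = 0.523 in edgeR).

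Both myelin basic protein genes and cnp were likewise not called with age. The age log2 fold change averaged over both exercise states was -0.07 ± 0.16 for mbpa and 0.10 ± 0.21 for mbpb, with adjusted p of 0.798 and 0.779 in edgeR. For mbpb the age log2 fold change over the 13 libraries was -0.59 with exercise and 0.60 without exercise, against -0.02 and 0.22 over all 20 libraries, with adjusted p of 0.459 and 0.438 in edgeR over the 13 libraries. The enzyme gene cnp was the steadiest of the 6, with a CV of 11.4% over 20 libraries. It averaged 56.8 ± 7.34 CPM in exercised 3-year and 52.7 ± 6.94 CPM in unexercised 3-year libraries, against 50.7 ± 3.56 CPM in exercised 1-year and 54.1 ± 6.24 CPM in unexercised 1-year libraries (SD, n = 5 each). Its age log2 fold change was 0.06 ± 0.07 (SE), with a 95% interval of 0.941 to 1.16 times, the narrowest of the 6 genes.

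**Figure D3:**
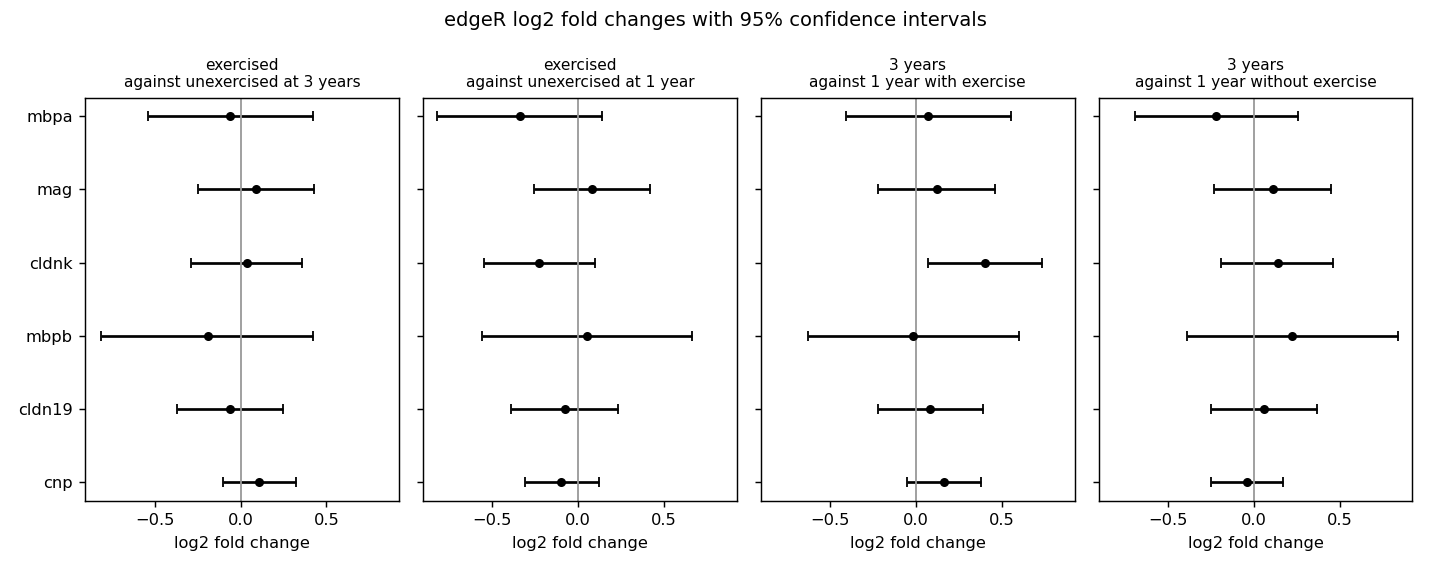
Log2 fold changes of the 6 myelin genes in 4 comparisons, with 95% confidence intervals from the edgeR fit and a line at 0. Intervals with exercise at 3 years and at 1 year all cross 0; with age, that of cldnk in exercised fish, at 0.07 to 0.73, lies above 0 and does not pass after adjustment.

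Ranges of CPM overlapped between groups in each gene. In 0 of 6 genes did the groups stand apart without overlap, in exercised against unexercised fish at 3 years or at 1 year, where 1.74% and 1.89% of all genes did. The same held for 3-year against 1-year fish with exercise and without it, where 11.3% and 2.6% of all genes did. Pooled over the other factor, 0 of 6 genes stood apart by exercise or by age, where 0.0142% and 0.426% of all genes did.

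Within groups, mbpa, mag, cldnk and cldn19 went up and down together between libraries by Pearson's r, but not in all pairs by Spearman's rho. The gene mbpb went with cldn19 among them, and cnp passed the test with none. Log2 CPM were centred on each group's mean, so differences between group means do not enter, and pairs were tested by permutation within groups. Of 15 pairs, 7 had an adjusted permutation p of Pearson's r below 0.05, each with r above 0, and 5 passed on Spearman's rho. All 7 were among the 10 pairs without cnp, while 0 of the 5 pairs with cnp passed; cnp was singled out after its values were seen, and the difference between its pairs and the others was not tested. Without cnp, r ran from 0.36 to 0.77 over 20 libraries, with a median of 0.71, and with cnp from -0.02 to 0.19. The closest pairs were mbpa with cldnk (r = 0.77, rho = 0.66) and cldnk with cldn19 (r = 0.77, rho = 0.63), each with an adjusted permutation p of r of 0.00225. The 2 myelin basic protein genes were less close, at r = 0.49 and rho = 0.43, with an adjusted permutation p of r of 0.0819. The 3 pairs without cnp that missed the threshold on r were those of mbpb with mbpa, mag and cldnk. On r the 6 pairs among mbpa, mag, cldnk and cldn19 passed. On rho, mbpa with mag (rho = 0.40, adjusted permutation p = 0.204) and mbpa with cldn19 (rho = 0.53, adjusted permutation p = 0.0839) did not. Without the 2 libraries farthest from the median of mbpa, r of mbpa with mag was 0.31. Genes share their library's depth and scaling, so r with all other genes was taken as the background: its median lay between -0.04 and 0.00 for each of the 6 genes. The share of 21138 other genes that reached a gene's median r with the set was 0.279% for cldnk (median 0.75), 0.308% for cldn19 (0.72), 1.61% for mbpa (0.63) and 2.05% for mag (0.63). It was 8.06% for mbpb (0.42) and 47.7% for cnp (0.01).

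The relation was as close without the libraries with other tissues' markers. Over the 13 libraries left without them, r of the 10 pairs without cnp ran from 0.44 to 0.90, with a median of 0.79. Without the 2 libraries farthest from the median of the first gene of a pair, it ran from 0.27 to 0.68, with a median of 0.56. Pairs with cnp ran from -0.17 to 0.11 over the 13 libraries and from 0.05 to 0.33 without the 2 farthest. In the latter case the ranges of r with and without cnp overlapped. The libraries can be named by how the 6 genes stood in them. Exercised 3-year library 1 had 6 of 6 genes among its 5 highest of 20 libraries, unexercised 3-year library 1 had 5, and exercised 1-year library 2 and unexercised 1-year library 1 had 4 each. At the low end, exercised 1-year library 5 had 6 of 6 genes among the 5 lowest and unexercised 1-year library 2 had 4. High and low libraries thus came from both exercise states, and high ones from both ages. The low ones named here were both 1-year libraries. Of the high ones, exercised 3-year library 1 and unexercised 1-year library 1 were among the 7 with high muscle, epidermis or retina markers.

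**Figure D4:**
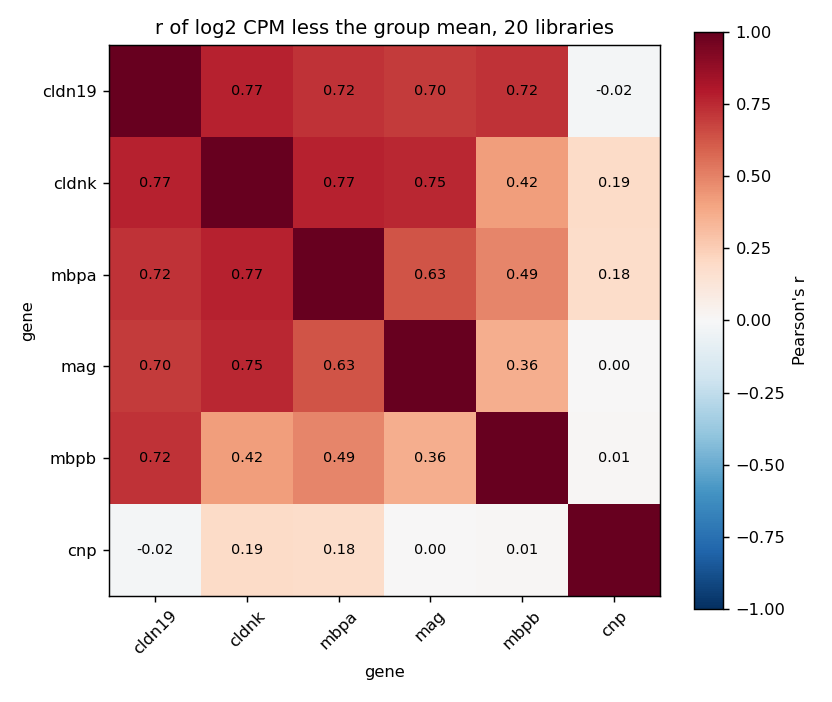
Pearson's r between the 6 myelin genes over 20 libraries, from log2 CPM less the group mean, with red for positive and blue for negative values. The 10 pairs without cnp lie between 0.36 and 0.77, and the row of cnp lies between -0.02 and 0.19.

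The library-to-library level was also compared with the mean log2 CPM of the 12 other gene lists and of the hox genes, added after seeing the data, in the same centred way. These were 78 relations adjusted together. In 1 relation both r and rho passed: cldn19 with the list of genes of myelin lipid synthesis and turnover. There r was 0.77 (adjusted permutation p = 0.014) and rho was 0.82 (adjusted permutation p = 0.00468, permuted within groups, n = 20). Without the 2 farthest libraries r was 0.74. With the same list mbpb had r = 0.66 and rho = 0.70, of which only rho passed (adjusted permutation p = 0.0616 and 0.0409). With muscle markers r ran from -0.05 for mag to 0.53 for mbpb, and with microglia and macrophage markers from 0.13 for mag to 0.61 for cnp. The lowest adjusted permutation p with either list was 0.154. With neuron and axon markers r ran from -0.64 for cnp (adjusted permutation p = 0.141) to -0.03 for cldn19. With oligodendrocyte lineage regulators it ran from -0.10 for mbpa to 0.33 for mbpb (adjusted permutation p = 0.945 and 0.486). With the hox genes r ran from -0.45 for cnp to 0.40 for mbpb (adjusted permutation p = 0.247 and 0.399). The mean log2 CPM of the hox genes was 1.41 to 2.09 in unexercised 3-year libraries, against -1.21 to 0.91 in unexercised 1-year libraries. With exercise it was -2.87 to 1.67 at 3 years and -1.86 to 1.42 at 1 year, so these ranges overlapped. The part of this difference in the age results was not tested.

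Of 17286 other genes, those most like the set were named by r with the mean of its standardised log2 CPM over 20 libraries, groups not centred. A gene listed as ELOVL1 (ENSDARG00000103735), for an enzyme that lengthens very long fatty acids, and si:ch211-253b8.5 had the highest r, 0.89. Another gene listed as ELOVL1 (ENSDARG00000099960) was not among the 10 most alike. QKI, an RNA-binding protein needed for myelination in mice, and FA2H, which hydroxylates fatty acids of myelin lipids, each had 0.87. UGT8, which makes the myelin lipid galactosylceramide, stood in 10th place with 0.82. The remaining 5 were stxbp6l and zwi, each at 0.85, SNTB2 and PHLDB1, each at 0.83, and map7d3, at 0.82. Of these 10 genes, 0 were called with age or with exercise by edgeR, with the lowest adjusted p, 0.0541, for map7d3 with age averaged over both exercise states (log2 fold change 0.23 ± 0.08, SE).

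The gene cd59a, a membrane-anchored inhibitor of complement, stood in 15th place by the same measure, with r = 0.80. Its mean of 1153 RPKM over 20 libraries was the 24th highest, below mbpa and above mag. Its level was 1359 ± 331 CPM in exercised 3-year and 1312 ± 196 CPM in unexercised 3-year libraries, against 1102 ± 126 CPM in exercised 1-year and 1168 ± 212 CPM in unexercised 1-year libraries (SD, n = 5 each). Its values overlapped between groups, from 914 to 1882 CPM. With age, averaged over both exercise states, its log2 fold change was 0.24 ± 0.11 (SE; adjusted p = 0.144 in edgeR). Over 20 libraries, centred on the group means, its r was 0.80 with cldnk, 0.78 with cldn19, 0.73 with mbpb, 0.72 with mbpa, 0.49 with mag and near 0 with cnp.

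Other genes of myelin and of its cells were read from lists. With age averaged over both exercise states, 16.9% of all genes were called, and the shares called on the lists of other myelin, lipid, lineage and node genes lay near this background. Of 25 tested genes of other myelin proteins, 4 were higher and 1 was lower at 3 years, with a median log2 fold change of 0.11. HAPLN2, a link protein of the matrix at nodes of Ranvier, rose by 0.81 ± 0.16 and the tetraspanin gene cd9b by 0.53 ± 0.14 on the log2 scale (SE; adjusted p = 0.00246 and 0.0145 in edgeR). One of the 2 genes listed as CLDN11 (ENSDARG00000020031), a claudin of central myelin in mammals, fell by 0.60 on the log2 scale, at a low mean of 11.5 CPM. The other (ENSDARG00000030723) had a log2 fold change of 0.50 and was not called (adjusted p = 0.108 in edgeR). The tubulin-binding gene tppp (ENSDARG00000104399) rose by 2.49 ± 0.70, at a mean of 3.81 CPM, while a gene listed as TPPP (ENSDARG00000105029) was not called, at 0.11 (adjusted p = 0.857 in edgeR).

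Of 27 genes of myelin lipid synthesis and turnover, 5 were higher and 1 was lower with age, where 16.9% of all genes were called. One of the 2 genes listed as GALC (ENSDARG00000016474), the lysosomal enzyme that breaks down galactosylceramide, rose by 0.48 ± 0.10 on the log2 scale (SE; adjusted p = 0.00334 in edgeR). The other (ENSDARG00000037064) had a log2 fold change of 0.22 and was not called (adjusted p = 0.0724 in edgeR). PSAP, the precursor of lysosomal activators of lipid breakdown, rose by 0.21 ± 0.05 and SMPD1, the acid sphingomyelinase, by 0.23 ± 0.06 (SE; adjusted p = 0.00669 and 0.012 in edgeR). The other 2 that rose, added after their values were seen, were SGPL1, which breaks down sphingosine phosphate, by 0.24 ± 0.06, and KDSR, an enzyme of sphingolipid synthesis, by 0.19 ± 0.06 (SE; adjusted p = 0.0177 and 0.0403 in edgeR). Of the 2 genes listed as SPTLC2, for a subunit of the enzyme that starts sphingolipid synthesis, one (ENSDARG00000074287) fell by 0.38 on the log2 scale. The other (ENSDARG00000018976) was at 0.16 (adjusted p = 0.108 in edgeR) and, in the comparison within exercised fish, rose by 0.31 ± 0.09 (SE; adjusted p = 0.0398 in edgeR). The called genes thus included enzymes of breakdown and of synthesis.

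Of 37 regulators and markers of the oligodendrocyte lineage, 6 were higher and 1 was lower with age, where 16.9% of all genes were called. The transcription factor genes OLIG2 and SOX10 rose by 0.76 ± 0.13 and 0.63 ± 0.12 on the log2 scale, and the neuregulin receptor gene erbb3b rose by 0.66 ± 0.18 (SE; adjusted p = 0.00129, 0.00204 and 0.0172 in edgeR). GPR17, a receptor of differentiating oligodendrocyte precursors in mammals, fell by 0.75 on the log2 scale at a mean of 5.94 CPM (adjusted p = 0.00309 in edgeR). One of the 2 genes listed as PTPRZ1 (ENSDARG00000020871), MYRF and adgrg1 also rose, and were added after their values were seen. They rose by 0.14 ± 0.04, 0.75 ± 0.22 and 0.37 ± 0.12 (SE, adjusted p = 0.0238, 0.0248 and 0.0485 in edgeR). The other PTPRZ1 gene (ENSDARG00000051814) was at 0.09 (adjusted p = 0.397 in edgeR). Of 28 genes of the node and paranode, 1 was higher and 4 were lower, again near the share of all genes. One of the 2 genes listed as GJB1 (ENSDARG00000035553), a gap junction gene of myelinating glia, rose by 0.37 ± 0.10 (SE; adjusted p = 0.0128 in edgeR), and the other (ENSDARG00000058064) was not called, at 0.24 (adjusted p = 0.697 in edgeR). The membrane skeleton genes epb41l3b, sptbn4a and EPB41L3 fell by 0.33, 0.20 and 0.21 on the log2 scale. Of 16 Schwann cell markers, 3 were called, SOX10 and erbb3b, which the lineage list also holds, and one of the 2 genes listed as NCAM1 (ENSDARG00000056181), which fell by 0.21 on the log2 scale. The other NCAM1 gene (ENSDARG00000007220) was at -0.16 (adjusted p = 0.0534 in edgeR).

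Markers of other cells were read by the same comparison, where 16.9% of all genes were called, 9.65% higher and 7.3% lower. For neurons and axons 9 of 25 genes were lower, with a median log2 fold change of -0.24. For radial glia and astroglia 2 of 17 were higher. Muscle markers were higher in 1 of 19 genes, blood markers lower in 1 of 9, and 0 of 20 epidermis and 0 of 14 retina and pineal markers were called. Without the 7 libraries with other tissues' markers, the called genes were 1 of 25 other myelin proteins, 1 of 27 lipid genes, 2 of 37 lineage genes, 1 of 28 node and paranode genes, 1 of 25 neuron markers and 10 of 18 microglia markers, where 4.33% of all genes were called. Those called on the myelin and lineage lists were HAPLN2, KDSR, OLIG2, SOX10 and epb41l3b. The lists share the libraries of the age comparison with the 6 genes, and no list's change was tested against another's.

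With exercise at either age, 0 of 25 other myelin proteins, 0 of 27 lipid genes, 0 of 37 lineage genes and 0 of 28 node and paranode genes were called by edgeR. Of all genes, 0.0284% were called at 3 years and 0.0189% at 1 year. Averaged over both ages, 0.908% of all genes were called, among them 1 of 17 radial glia and astroglia markers. This was one of the 2 genes listed as GLUL (ENSDARG00000100003), for glutamine synthetase, at a log2 fold change of 0.54 ± 0.12 (SE; adjusted p = 0.0366 in edgeR). The other (ENSDARG00000099776) was at 0.06 (adjusted p = 0.813 in edgeR). The call was lost without the 3 libraries with the highest markers (0.50, adjusted p = 0.234 in edgeR) and over the 13 libraries (0.37, adjusted p = 0.488 in edgeR), where 0.00464% of all genes were called.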

How the data were processed

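Brain RNA was measured in 20 libraries, 5 in each of 4 groups. The kit, TruSeq RNA v2 per the labels' protocols, does not mark strand, and reads of genes that overlap on opposite strands cannot be told apart. The genome build GRCz10 and the tools featureCounts 1.4.6-p4, STAR 2.4.1d and bcl2fastq 1.8.4 are listed in the submitters' processing notes, with no settings. Files deposited by the authors hold whole-number read counts per gene, used for all tests, and RPKM values for the same genes. In the deposited RPKM, the implied gene length of 10136 genes with over 200 counts in every library varied between libraries, by a median CV of 13.8% with own totals as divisors and of 0.00217% with the 20 totals taken in turn down the genes. The total used was 0.676 to 1.48 times the own total. RPKM were therefore recomputed with own totals, from counts and implied lengths.

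Symbols came from a table that names 26269 of the identifiers; of the symbols on the 12 gene lists, 266 of 306 matched, many through a family symbol, so a listed gene may be another copy. The genes and lists were chosen with earlier results of these data known. No genome of the files' build was used here, so no coordinates or sequences are given.

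edgeR 4.0.16 in R 4.3.3 was run on the deposited counts with filterByExpr (minimum count 10, minimum total 15; 21148 genes kept), TMM scaling and robust quasi-likelihood dispersions, with a mean per group over 20 libraries. Adjusted p are Benjamini-Hochberg values over all genes tested, calls are at 0.05, and SE were derived from F statistics. The test was checked on simulated data, with genes drawn independently at the same dispersion. Those data had no libraries high in other tissues' markers and no genes that go together, so the check does not cover these traits. DESeq2 1.42.0, limma 3.58.1 with voom weights, other scalings and filters, and fits without each library were tried as alternatives. Correlations used 100000 permutations within groups, adjusted over 15 pairs or 78 relations; the smallest p they can give is 1e-05. Named genes were the 6 genes described, up to 4 genes of each list past the threshold by smallest p, and the 10 genes most like the set with at least 1 CPM on average. Further lipid and lineage genes were named where the text says they were added after their values were seen. Depth of 23.4 to 34.6 M counts leaves counting error small for these genes, so the spread between libraries limits the precision. Replicates were numbered in accession order and pair nothing. No columns of values were left unused. Some genes of the set and of a list are not reported here.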

Additional observations from a re-analysis of the deposited data

Results flagged for a closer look

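In 3 of 24 sets of 5 libraries, 1 for each gene and group, a single library stood far from the other 4, with a gap over 0.71 of the range of the set. Independent, normally distributed values would give about 1 in 20. These sets share the same 20 libraries and some of the genes go together, so the count was not tested against chance. Unexercised 3-year library 1 was high in mag, at 365 CPM. Exercised 1-year library 2 was high in mbpa, at 13742 CPM. Unexercised 1-year library 1 was high in cnp, at 65.1 CPM, and is the library with the highest summed muscle and epidermis markers. Each of the 3 values was at the upper end of its group.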

How the results depend on the processing

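In all 7 comparisons the count of called genes among the 6 stayed at 0 under each alternative run, of tool, scaling, filter and dispersion, without 1 library at a time (0 to 0), and without the libraries with high muscle, epidermis or retina markers. Over all genes the count did move. With age averaged over both states it was 4682 of 21148 with DESeq2 and 933 of 21531 without the 7 libraries. In the main fit it was 6 with exercise at 3 years, 4 with exercise at 1 year and 1 for the interaction. Without the 7 libraries it was 0 in each of these. Where so few of all genes are called, a count of 0 of 6 cannot show that a result is stable. For cldnk with age averaged over both states, the adjusted p ran from 0.0787 to 0.117 under other tools, scalings, filters and dispersions. It ran from 0.0558 to 0.193 without 1 library and was 0.0908 without the libraries highest in muscle, epidermis, retina and blood markers. Without the 7 libraries, a choice made after seeing the data, it was 0.4. With fewer libraries every test has less power. No paired analysis was possible because replicate numbers follow accession order.

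The size of changes that kept their sign moved as well: over the 13 libraries mbpb with exercise at 3 years was -0.92 in place of -0.19 and its interaction -1.18 in place of -0.24, and without 1 library at a time mbpb with exercise at 3 years ran from -0.40 to -0.05 and mbpa with exercise at 1 year from -0.53 to -0.22. The signs below belong to genes that were not called in edgeR, and the cause of each change was not tested. The mag interaction, 0.008, became -0.0003 with DESeq2, -0.00029 with RLE scaling and -0.00067 with no filter. Upper quartile scaling turned cnp with exercise averaged over both ages to -0.0091 and mbpb with age in exercised fish to 0.02. Without the libraries highest in muscle, epidermis, retina and blood markers, exercise at 1 year gave 0.14 for cldn19 and 0.01 for cnp, and the interaction gave -0.0066 for mbpa, -0.02 for mag and -0.19 for cldn19. Exercise averaged over both ages gave 0.09 for mbpb and 0.04 for cldn19, age without exercise gave 0.07 for mbpa and 0.06 for cnp, and age averaged over both states gave 0.07 for mbpa. Without the 7 libraries, exercise at 3 years gave -0.05 for cldnk, the interaction gave -0.10 for mbpa and -0.16 for cldn19, age without exercise gave 0.02 for cnp and age in exercised fish gave -0.15 for mbpa.

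Leaving out 1 library at a time, log2 fold changes that crossed 0 ran as follows. With exercise at 3 years, mbpa ran from -0.17 to 0.17, cldnk from -0.12 to 0.13 and cldn19 from -0.15 to 0.04. With exercise at 1 year, mbpb ran from -0.15 to 0.22, mag from -0.04 to 0.17 and cldn19 from -0.18 to 0.02. The interaction ran from -0.08 to 0.18 for mag and from -0.07 to 0.12 for cldn19. With exercise averaged over both ages, mbpb ran from -0.17 to 0.01 and cnp from -0.03 to 0.05. With age in exercised fish, mbpa ran from -0.05 to 0.26, mbpb from -0.22 to 0.18 and cldn19 from -0.0053 to 0.19. With age without exercise, mag ran from -0.06 to 0.20, cldn19 from -0.03 to 0.16 and cnp from -0.09 to 0.05. With age averaged over both states, mbpa ran from -0.19 to 0.02.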
